A study of Mus musculus with 10 samples.

Results

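The transcripts described here are those of 10 genes of the S100 family, *S100a1*, *S100a4*, *S100a6*, *S100a8*, *S100a9*, *S100a10*, *S100a11*, *S100a13*, *S100a16* and *S100b*, taken by their symbols from mRNA-seq of mouse adipocyte precursors (APs) out of 18384 genes listed in any library. The APs came from subcutaneous white adipose tissue (scWAT) of C57BL/6J mice. They were enriched on magnetic columns, first by depletion of cells with CD45 (leukocytes) or CD31 (endothelium) and then by selection for SCA-1, and were grown in culture. The groups were 3 control cultures (libraries 1 to 3) and 3 cultures incubated with the type 2 cytokine interleukin-4 (IL-4; libraries 4 to 6), all harvested on day 4. Each library held 28526782 to 29057787 expected counts, the number of reads per gene as estimated by the authors. The submitters call the cultures biological replicates, but the labels do not say whether they came from separate animals, so the p-values measure the spread between these cultures, which may in part be technical.

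S100 proteins are small calcium sensors with a pair of EF-hand loops. On binding calcium, most of them open a hydrophobic face that holds a partner protein, such as an annexin, a myosin heavy chain or p53, and some are also released and bind receptors such as RAGE (*Ager*) or TLR4. In adipose tissue, S100A4 is known as a protein of fibroblasts and macrophages, S100A8 and S100A9 as the calprotectin subunits of neutrophils and monocytes, and S100B as a protein of glia that adipocytes also make.

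All members but *S100b* lie on mouse chromosome 3 (GRCm38, the assembly named mm10 in the labels). From *S100a1* (chr3:90511034-90514330, minus strand) the order is *S100a13* (chr3:90514233-90524581), *S100a16* (chr3:90537254-90543151), *S100a4* (chr3:90603770-90606045), *S100a6* (chr3:90612894-90614414), *S100a8* (chr3:90669071-90670034) and *S100a9* (chr3:90692630-90695721, minus strand). *S100a11* (chr3:93520496-93526288) and *S100a10* (chr3:93555117-93564645) lie farther along, and *S100b* is on chromosome 10 (chr10:76253836-76261319). Promoters are shown for *S100a16*, the largest rise, for *S100a6* and *S100a4*, and for *S100a11*, the smallest difference in the test on all 6 libraries. The windows of *S100b*, *S100a8* and *S100a9* were searched but are not shown. Each line gives the 150 bases before an annotated start site on the plus strand of GRCm38.p6, from RefSeq, and the last line gives the 104 bases between the start sites that the promoter windows use for the head-to-head genes *S100a1* (90514330) and *S100a13* (90514435). The annotation also has *S100a13* begin earlier, at 90514233, inside *S100a1*. Capitals mark matches to an AP-1 element (TGANTCA), a GC box (GGGCGG), the core promoter element known as the TATA box (TATAAA) or a CCAAT box (CCAAT), searched on both strands.
S100a16, upstream start site, chr3:90537104-90537253: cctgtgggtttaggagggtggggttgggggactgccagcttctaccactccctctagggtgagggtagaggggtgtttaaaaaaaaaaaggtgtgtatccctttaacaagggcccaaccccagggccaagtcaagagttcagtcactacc
S100a16, downstream start site, chr3:90540996-90541145: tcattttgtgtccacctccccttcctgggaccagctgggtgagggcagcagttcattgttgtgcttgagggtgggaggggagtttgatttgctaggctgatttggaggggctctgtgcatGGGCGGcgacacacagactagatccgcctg
S100a6, chr3:90612744-90612893: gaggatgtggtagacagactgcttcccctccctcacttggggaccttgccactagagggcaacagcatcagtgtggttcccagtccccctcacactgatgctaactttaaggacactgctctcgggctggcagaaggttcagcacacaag
S100a4, chr3:90603620-90603769: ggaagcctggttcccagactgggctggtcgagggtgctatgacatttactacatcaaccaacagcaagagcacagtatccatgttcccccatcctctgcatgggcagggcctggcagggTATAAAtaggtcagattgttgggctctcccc
S100a11, chr3:93520346-93520495: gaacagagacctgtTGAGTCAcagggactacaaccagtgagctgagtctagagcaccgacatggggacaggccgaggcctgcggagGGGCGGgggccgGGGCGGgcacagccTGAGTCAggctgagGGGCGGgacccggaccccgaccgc
S100a1 to S100a13, between their start sites, chr3:90514331-90514434: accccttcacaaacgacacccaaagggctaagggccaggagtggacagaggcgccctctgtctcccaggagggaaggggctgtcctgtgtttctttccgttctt

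The *S100a4* stretch carried a TATA box 31 bases before the start site, a match found in 13.6% of all 32851 promoter windows of 300 bases (250 before to 50 after a start site). *S100a11*, whose level differed least in the test on all 6 libraries, had AP-1 matches 136 and 38 bases before its start site and 3 GC boxes. AP-1 matches occurred in 7.81% of all windows and GC boxes in 35.7%. *S100a16* has 2 annotated start sites. Its downstream window held a GC box and, 192 bases before the start and so outside the stretch shown, an AP-1 match. The *S100a6* stretch had no match, and a CCAAT box, found in 37.4% of all windows, began at position -228 from its start. Among windows not shown, *S100b* had CCAAT boxes at positions -202 and -20, and *S100a8* had a TATA box at -30. *S100a9* had a TATA box at position 1 and a GC box at -223. Letters of the kind bound by STAT6, the transcription factor activated by IL-4 (TTCNNNNGAA), or by other STAT proteins (TTCNNNGAA), were in none of the 10 windows available for 9 members, against 6.95% and 8.3% of all windows. No match in these windows says nothing about binding elsewhere.

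With IL-4, 4 of the 8 members with enough reads for a test rose: *S100a16*, *S100a13*, *S100b* and *S100a6*. *S100a1*, *S100a4*, *S100a10* and *S100a11* did not pass the test, and *S100a8* and *S100a9* had too few reads for one. The test was edgeR's quasi-likelihood test on rounded expected counts, with p-values adjusted (Benjamini-Hochberg) over all 14009 genes tested, and a gene was called at an adjusted p under 0.05. Among all genes tested, 19.0% were called higher and 18.4% lower. The median log2 fold change of the 8 members was 0.44, and that of all genes tested was 0.00. Requiring in addition a log2 fold change above 1 left *S100a13* and *S100a16*, 2 of 8, against 5.77% of all genes, and none of the members was below -1, against 5.26%. For 4 members, every IL-4 library was above every control library in normalized counts, a separation seen in 25.2% of all genes, and for none were the IL-4 libraries all below, as seen in 25.3%. In bulk samples, fewer cells of a type and less RNA per cell cannot be told apart.

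**Figure D1:**
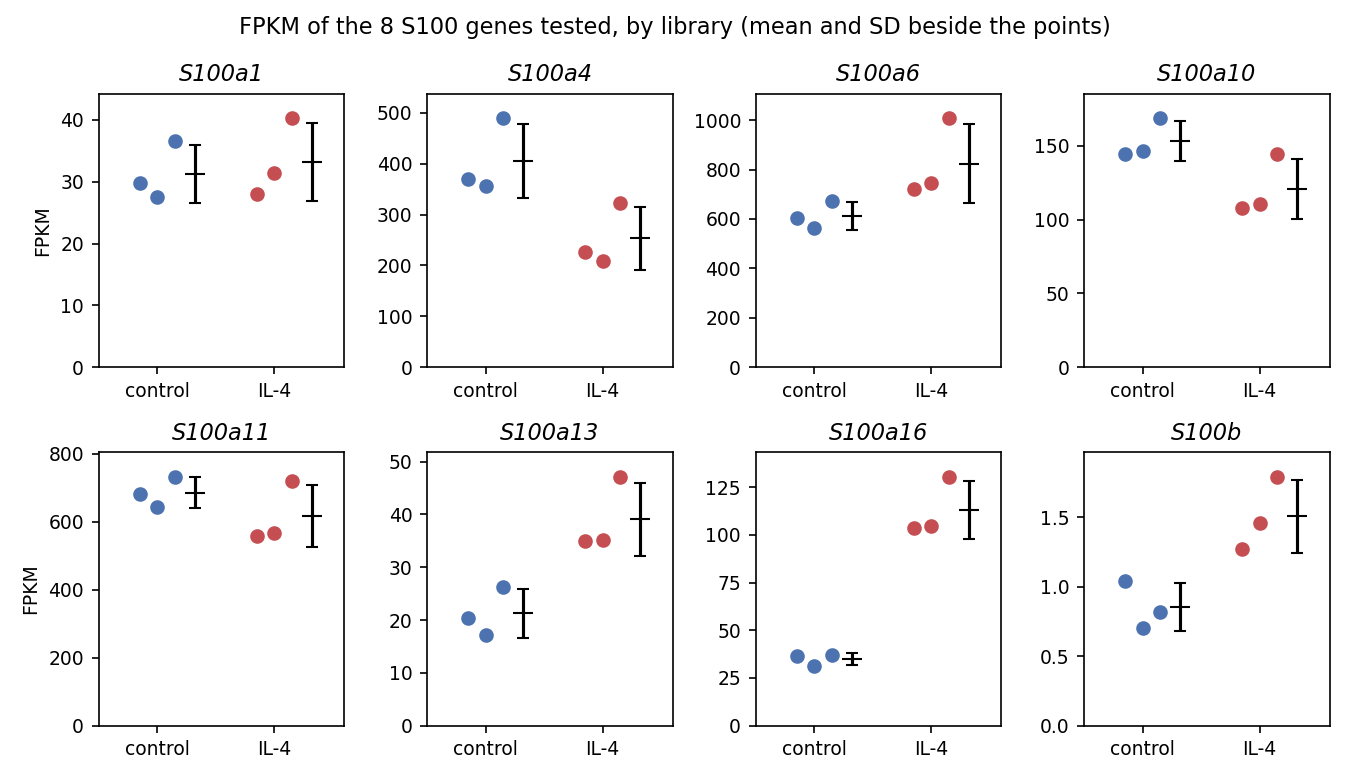
FPKM (reads scaled for transcript length and library depth) of the 8 S100 genes tested, 1 panel a gene and 1 point a library, with control cultures in blue and IL-4 cultures in red, and the mean and SD (n = 3) in black beside the points. Each axis starts at 0 and has its own scale. The IL-4 libraries of S100a16 lay between 103.82 and 130.44 FPKM and the controls between 31.38 and 37.17, and in every panel the last IL-4 point, library 6, is the highest of its group.

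*S100a16*, which has been linked to adipocyte differentiation in cell lines, changed most. Its FPKM were 36.47, 31.38 and 37.17 in the control cultures and 103.82, 104.67 and 130.44 in the IL-4 cultures. The groups lay far apart, and the cultures of a group lay close together. In reads, it had 1064, 916 and 1090 in the controls against 3067, 3103 and 3888 with IL-4. The log2 fold change was 1.86 (standard error 0.10, edgeR adjusted p = 4.68e-06), a fold of 3.64. In the order of all genes by transcript abundance (TPM, which is FPKM rescaled to the same sum in every library), *S100a16* moved from place 2204 in the control mean to place 559 with IL-4.

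*S100a13* takes part in the release of FGF1 and interleukin-1α, which leave cells without a signal peptide. Its FPKM were 20.33, 17.22 and 26.19 in the control cultures and 34.94, 35.2 and 47.11 with IL-4. Every IL-4 library exceeded every control, although control 3 and IL-4 6 were each the highest of their group. The log2 fold change was 1.06 (standard error 0.17, edgeR adjusted p = 0.00148), a fold of 2.08. *S100a1*, its head-to-head neighbour and a regulator of calcium handling in heart muscle, had 29.73, 27.51 and 36.54 FPKM in the controls against 28.04, 31.44 and 40.24 with IL-4. These ranges overlapped, and the log2 fold change of 0.27 (standard error 0.15) did not pass (edgeR adjusted p = 0.198). The ratio of *S100a13* to *S100a1* within a library, which cancels the library's scaling, was 0.684, 0.626 and 0.717 in the controls against 1.25, 1.12 and 1.17 with IL-4. The ratio thus crossed 1 in every IL-4 library. With 3 libraries against 3, an exact permutation test cannot give a two-sided p below 0.1. From the earlier annotated start of *S100a13*, both genes overlap by 98 bases on opposite strands, and the sources used here do not say whether reads were counted by strand, so reads in that overlap cannot be assigned for certain.

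*S100b* was read little but rose. It had 48, 32 and 38 reads in the control cultures and 59, 68 and 84 with IL-4, which is 1.04, 0.7 and 0.82 FPKM against 1.27, 1.46 and 1.79. The groups did not overlap in reads or FPKM. The log2 fold change was 0.99 (standard error 0.20, edgeR adjusted p = 0.00605). It fell to 0.43 with limma on log2(FPKM + 1), a scale on which low genes change less. Markers of Schwann cells and glia, the cells best known for S100B, went the other way as a list: 5 of the 8 tested were lower, among them *Sox10* and *Mbp*, and 1, *Fabp7*, was higher, with a summed level of 45.7 to 49.0 FPKM in the controls against 27.6 to 28.8 with IL-4. Over all genes tested, 18.4% were lower and 19.0% higher. *Fabp7*, with 6 to 14 reads in the controls against 18 to 44 with IL-4, had enough reads for a test in every library of a group only with IL-4. The largest part of the sum was *Ngfr*, at 19.99 to 21.23 FPKM in the controls against 10.36 to 11.01 with IL-4.

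*S100a6* (calcyclin), first known as a transcript induced by growth factors, was next to *S100a11* in abundance in the controls and the most abundant member with IL-4. Its FPKM were 601.79, 562.64 and 671.01 in the control cultures and 719.42, 746.61 and 1007.02 with IL-4. Its groups did not overlap either, but IL-4 6 stood well above the other IL-4 libraries. The log2 fold change was 0.61 (standard error 0.12, edgeR adjusted p = 0.00599), a fold of 1.52. On the FPKM scale the difference was smaller, 0.42 on the log2(FPKM + 1) scale, and just missed the threshold in limma (adjusted p = 0.0528).

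*S100a4* binds non-muscle myosin and is used as a marker of fibroblasts. It was the member with the lowest fold change. Its FPKM were 370.55, 356.15 and 489.21 in the control cultures and 226.63, 209.07 and 323.6 with IL-4. All IL-4 values were below all controls in FPKM, but in normalized counts (reads scaled by TMM, edgeR's library scaling) IL-4 6, at 4339, was above control 2, at 4334. The log2 fold change of -0.50 (standard error 0.17) did not pass the test (edgeR adjusted p = 0.0526). Without adjustment, edgeR's quasi-likelihood p was 0.0199, and *S100a4* was the only member lower at an unadjusted p under 0.05. Under 8 of 14 alternative settings, DESeq2 among them, it passed the test, always with a lower level in IL-4 cultures, and the log2 fold change was then between -0.70 and -0.50. Without IL-4 library 6 it was -0.70 (edgeR adjusted p = 0.000539). With any other single library left out, *S100a4* did not pass (-0.58 to -0.35, edgeR adjusted p = 0.0662 to 0.167). Of 15 markers of macrophages, which also express *S100a4*, 14 were lower with IL-4, and their part in the *S100a4* level was not tested.

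*S100a11* and *S100a10* bind annexins A1 and A2, and S100A10 is unusual in the family because it does not need calcium to do so. *S100a11* had 682.28, 643 and 731.89 FPKM in the control cultures and 558.77, 567.38 and 720.79 with IL-4. These ranges overlapped, and the log2 fold change was 0.02 (standard error 0.10, edgeR adjusted p = 0.88). Its sign was not stable, as it was -0.15 when libraries were scaled by their totals alone. *S100a10* had 144.26, 146.88 and 168.72 FPKM in the controls against 107.97, 110.82 and 144.6 with IL-4, where IL-4 6 reached the level of the lowest controls. Its log2 fold change of -0.16 (standard error 0.11) did not pass the test (edgeR adjusted p = 0.297). Without IL-4 library 6 the log2 fold change of *S100a10* was -0.29 and passed (edgeR adjusted p = 0.00616). With any other single library left out, *S100a10* did not pass (-0.21 to -0.08, edgeR adjusted p = 0.307 to 0.63).

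*S100a8* and *S100a9* were close to absent. *S100a8* had 1, 0 and 5 reads in the control cultures and 3, 1 and 1 with IL-4, and *S100a9* had 0, 2 and 0 reads in the controls against none with IL-4. For *S100a8*, with 6 control reads and 5 IL-4 reads in all, the ratio of IL-4 to control was 0.927 (95% exact interval 0.224 to 3.65, counting error only), so no difference was detectable at this depth. For *S100a9* both groups were at or under the limit of 3 reads that a count of 0 allows, and no fold is given. Neutrophil markers were low as well. Of 12, only 3 had enough reads for a test and none was called, 5 had at most 3 reads in any library (*Ly6g*, *Ngp*, *Mpo*, *Elane* and *Retnlg*), and the summed level was 1.96 to 2.4 FPKM in the controls against 1.91 to 2.18 with IL-4.

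The libraries differed in how many reads fell on short transcripts, and this moved with the S100 genes. The 8 members tested have transcripts of 504 to 1676 bases in the tables, and 7 of them are no longer than 1091, whereas the median of the genes tested was 2859. Control 3 was above the mean of controls 1 and 2 for 7 of the 8 members, by 0.12 to 0.47 on the log2 scale, and IL-4 6 was above the mean of IL-4 4 and 5 for all 8, by 0.28 to 0.54. Over all tested genes of 500 to 1100 bases the same differences had medians of 0.18 and 0.37, and over genes longer than 4000 bases -0.11 and -0.25. What made these libraries differ was not tested.

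**Figure D2:**
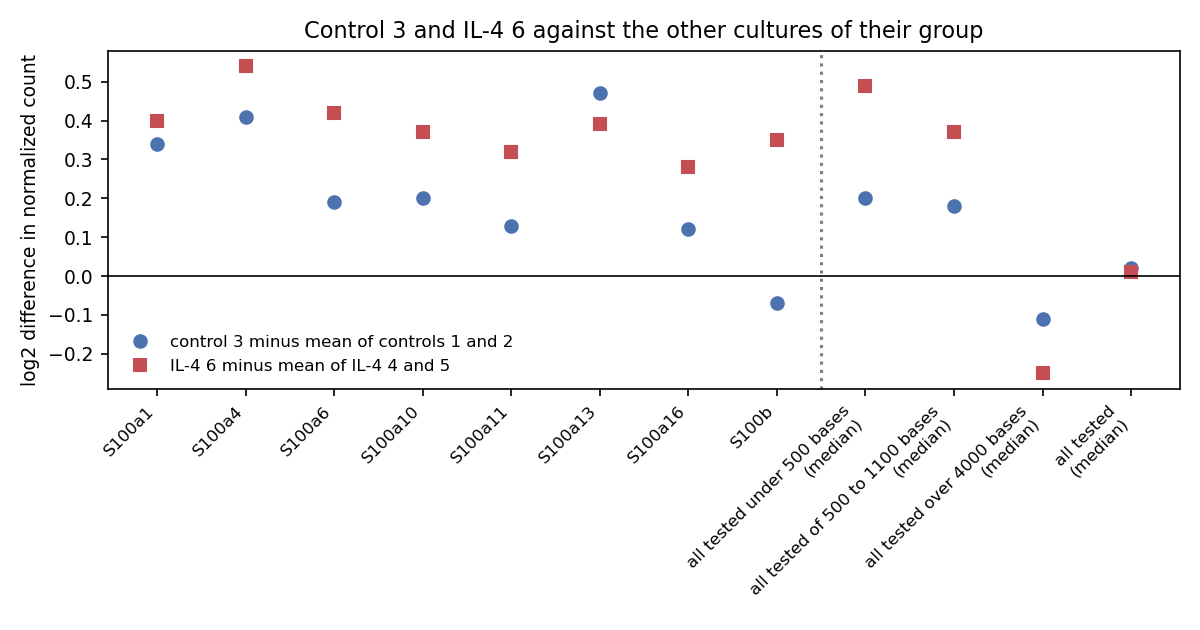
Difference in log2 normalized count of control 3 from the mean of controls 1 and 2 (blue circles) and of IL-4 6 from the mean of IL-4 4 and 5 (red squares), for each S100 gene tested and, right of the dotted line, as medians over tested genes by transcript length. IL-4 6 lies between 0.28 and 0.54 above its group for every S100 gene, near the medians of 0.37 and 0.49 for short genes, while genes over 4000 bases lie at -0.25.

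The comparison was therefore repeated, after the data had been seen, with each library's smooth trend on transcript length removed, and also without control 3 and IL-4 6. With the length trend removed, the same 4 members were higher, and *S100a4*, *S100a10* and *S100a11* were lower. In that fit 25.8% of all genes were called higher and 25.4% lower; the members' counts were 4 and 3 of 8. The log2 fold changes were 1.75 for *S100a16*, 0.92 for *S100a13*, 0.92 for *S100b* and 0.46 for *S100a6*. *S100a4* had a log2 fold change of -0.67 (standard error 0.06, edgeR adjusted p = 1.71e-05), and its adjusted counts were 4789, 4875 and 5609 in the controls against 3317, 2989 and 3302 with IL-4, with no overlap. *S100a10* was at -0.31 (edgeR adjusted p = 0.000115) and *S100a11* at -0.14 (edgeR adjusted p = 0.0318). Without control 3 and IL-4 6, *S100a4* (-0.55) and *S100a10* (-0.23) were again lower, *S100a11* (-0.05, edgeR adjusted p = 0.333) was not called, and *S100a1* (0.24, edgeR adjusted p = 0.0277) joined the members that were higher. In that fit 3576 of 14041 genes were called higher and 3520 lower, and the members' counts were 5 and 2 of 8. Removing the trend takes away a difference between the groups too, since the mean of the trend at the members' lengths was 0.06 to 0.15 log2 units higher in IL-4 libraries.

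**Figure D3:**
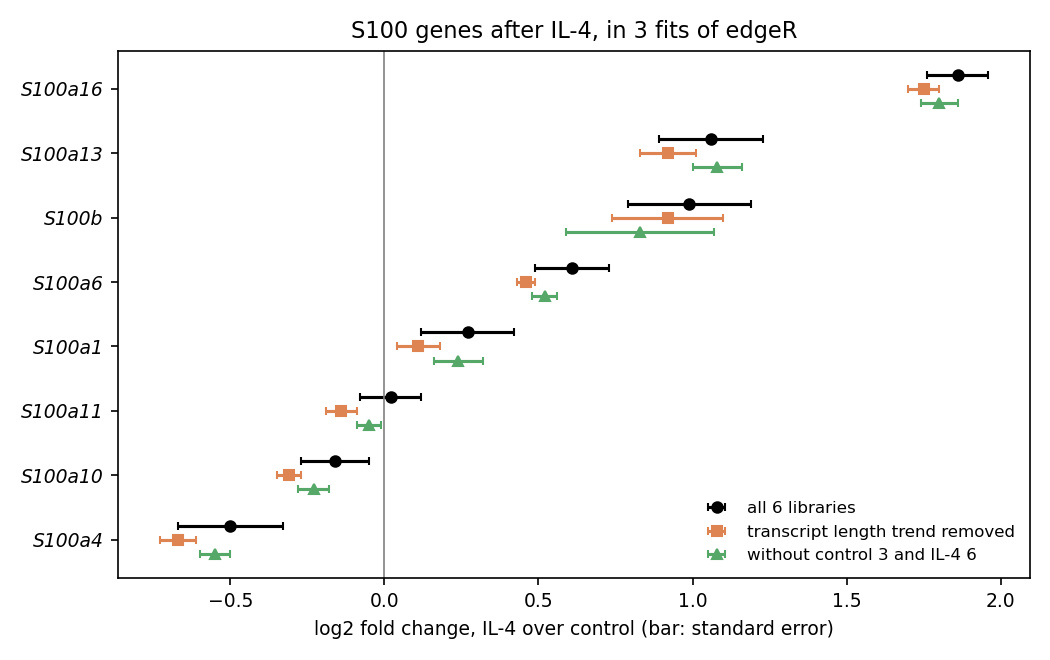
Log2 fold change of IL-4 over control for the 8 S100 genes tested, with its standard error, from edgeR on all 6 libraries (black circles), with the transcript length trend of each library removed (orange squares), and without control 3 and IL-4 6 (green triangles). S100a16, S100a13, S100b and S100a6 lie right of 0 in all fits, S100a4 and S100a10 left of it, and S100a11 moves from 0.02 to -0.14 and -0.05.

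On the TPM scale the total level of the members overlapped between the groups, while their shares differed. TPM, unlike normalized counts, are not scaled by TMM, so this does not describe the total in normalized counts. Their summed TPM was 4557, 4406 and 4977 in the control cultures, which is 0.441% to 0.498% of all transcripts, and 4466, 4470 and 5326 with IL-4, or 0.447% to 0.533%. Control 3 and IL-4 6 had the highest total of their groups. *S100a4*, *S100a6*, *S100a10* and *S100a11* together made up 95.3% to 95.7% of the members' FPKM in the controls against 90.4% to 90.9% with IL-4, so the less abundant members took up more in every IL-4 library. In the order of level, *S100a11* (686 ± 44.5 FPKM; SD, n = 3) and *S100a6* (612 ± 54.9) led in the controls with overlapping ranges, followed by *S100a4* (405 ± 73.0), *S100a10* (153 ± 13.4), *S100a16* (35.0 ± 3.16), *S100a1* (31.3 ± 4.71) and *S100a13* (21.2 ± 4.55). The ranges of *S100a16* and *S100a1* overlapped, although within each library *S100a11* was above *S100a6* and *S100a16* above *S100a1*. With IL-4 the order was *S100a6* (824 ± 159), *S100a11* (616 ± 91.2), *S100a4* (253 ± 61.7), *S100a10* (121 ± 20.4), *S100a16* (113 ± 15.1), *S100a13* (39.1 ± 6.95) and *S100a1* (33.2 ± 6.3). Here *S100a6* and *S100a11*, *S100a10* and *S100a16*, and *S100a13* and *S100a1* had overlapping ranges, but within each IL-4 library the first of each pair was the higher. Within a library *S100a6* over *S100a11* was 0.882, 0.875 and 0.917 in the controls against 1.29, 1.32 and 1.4 with IL-4.

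Shares within a library do not depend on its depth. *S100a6* took 31.5% ± 0.432 of the members' FPKM in the controls against 41.1% ± 0.669 with IL-4 (SD, n = 3 each). *S100a4* went from 20.7% ± 1.64 to 12.6% ± 0.923. The ratio of *S100a6* to *S100a4* was 1.62, 1.58 and 1.37 in the controls against 3.17, 3.57 and 3.11 with IL-4, and the groups lay far apart. *S100a16* went from 1.8% ± 0.114 to 5.67% ± 0.238, *S100a11* from 35.3% ± 1.29 to 30.9% ± 0.895, and *S100a13* from 1.08% ± 0.124 to 1.95% ± 0.00724. Relative to *S100a11*, *S100a16* was at 0.0535, 0.0488 and 0.0508 in the controls against 0.186, 0.184 and 0.181 with IL-4. The spread was narrow in both groups, control 3 and IL-4 6 included. *S100a11* was the member that differed least in edgeR on all 6 libraries. On the log2(FPKM + 1) scale it was at -0.16 (limma, not called), which raises this ratio, and *S100a1* was at 0.08.

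**Figure D4:**
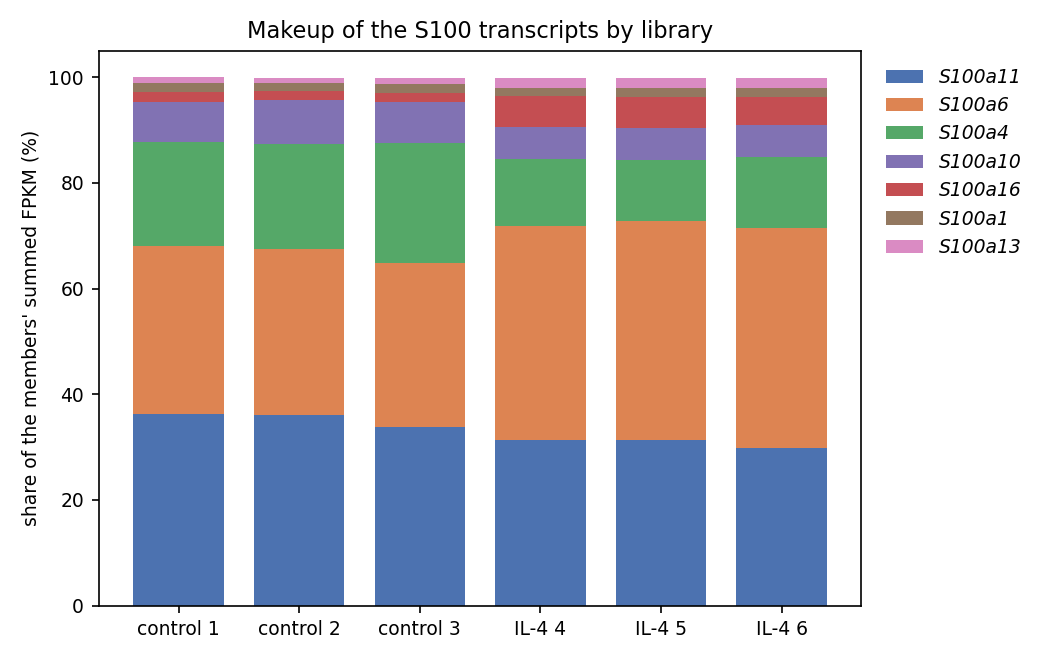
Share of each S100 gene in the members' summed FPKM, in percent, as 1 stacked bar a library (S100a8, S100a9 and S100b are too small to be drawn). S100a6 (orange) widens from about 31.5% to 41.1%, S100a4 (green) narrows from 20.7% to 12.6%, and S100a16 (red) widens from 1.8% to 5.67%.

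The changes were uneven along the chromosome. From *S100a1* onward, the tested genes were *S100a1* (0.27, not called), *S100a13* (1.06), *S100a14* (2.39), *S100a16* (1.86), *S100a3* (3.75), *S100a4* (-0.50, not called) and *S100a6* (0.61) in log2 fold change. *S100a3* and *S100a14* had enough reads for a test only in the IL-4 libraries, so they could be tested only by being higher there, and *S100a2*, which overlaps *S100a3*, was not tested. *S100a3*, known from the hair cuticle, had 1, 2 and 2 reads in the controls against 18, 21 and 26 with IL-4 (edgeR adjusted p = 0.000146). The ratio of its summed reads, scaled by library, was 14.5 (95% exact interval 5.89 to 46.0, counting error only). *S100a14*, an epithelial S100 gene, had 10, 2 and 0 reads in the controls against 19, 19 and 20 with IL-4, and its call (edgeR adjusted p = 0.0211) was lost without control 2 (adjusted p = 0.0794) or IL-4 5 (adjusted p = 0.0547). Its log2 fold change was 4.25 without control 1 and 1.81 without control 3. None of the 5 tested genes drawn to the left of *S100a1* was called higher. Nearest to it were *Chtop* at -0.01 (edgeR adjusted p = 0.9), *Snapin* at 0.17 (edgeR adjusted p = 0.0565) and *Ilf2* at -0.22 (edgeR adjusted p = 0.0442), and beyond them lay *Npr1* at 0.82 (edgeR adjusted p = 0.0677) and *Ints3* at -0.08 (edgeR adjusted p = 0.497). *Npr1* was called higher with the length trend removed (0.87, adjusted p = 0.0395) and without control 3 and IL-4 6 (1.03, adjusted p = 0.0288), as was *Snapin* (0.13, adjusted p = 0.0243, and 0.18, adjusted p = 0.00489). *Ilf2* lost its call when any library other than IL-4 6 was left out (adjusted p = 0.0629 to 0.149). Of the 102 annotated genes that lie among or within 100 kb of the S100a genes and are no members, 11 were tested, of which 3 (*S100a3*, *S100a14* and *Sprr1a*) were called higher and 1 (*Ilf2*) lower. The count of 3 includes *S100a3* and *S100a14*, which could be tested only by being higher with IL-4. Over all genes tested, 19.0% were called higher and 18.4% lower.

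**Figure D5:**
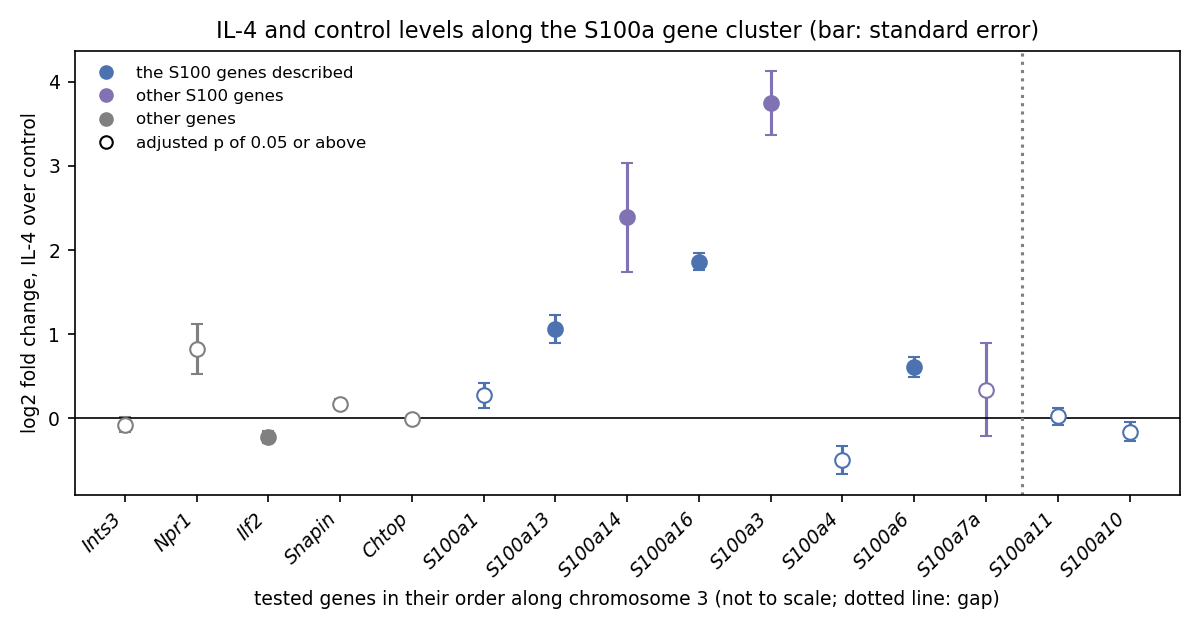
Log2 fold change of IL-4 over control with its standard error for the S100a genes tested (blue, and purple for those not among the 10) and for 5 tested genes on their left (grey), in their order along chromosome 3 and not to scale. Filled points passed the test. The points from S100a13 to S100a3 are all above 1, and S100a4, the next tested gene, is at -0.50. S100a14 and S100a3 had enough reads for a test only in the IL-4 libraries. They could thus be drawn only by being higher there, and S100a2 was not tested.

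Of 7 other mouse S100 genes on a list drawn up for this family, 3 were tested. *S100a3* and *S100a14*, which passed the filter on low counts only through the IL-4 libraries, were called higher. *S100a7a* was not called (log2 fold change 0.34, edgeR adjusted p = 0.67), and *S100a5*, *S100a7l2*, *S100g* and *S100z* had at most 3 reads in any library. Of 7 fused-type S100 genes, which are skin barrier proteins such as filaggrin, 1 was tested and none was called. *Tchh* had 16 to 30 reads in the controls against 7 to 16 with IL-4 (edgeR adjusted p = 0.0887), and was called lower without IL-4 5 (log2 fold change -1.43, adjusted p = 0.0398). It passed the filter on low counts only through the controls, the group where it was higher.

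Partners that S100 proteins meet outside the cell or at its surface were mostly higher. Of 12, 10 were tested, 8 were higher (against 19.0% of all genes tested) and none lower, and the median log2 fold change was 0.73. *Fgf1*, released together with S100A13, had 1, 6 and 8 reads in the control cultures and 109, 126 and 117 with IL-4. No IL-4 library came near a control, and the log2 fold change was 4.67 (standard error 0.33, edgeR adjusted p = 1.92e-05). *Il1a*, the other S100A13 cargo, had 5, 2 and 3 reads in the controls against 16, 13 and 20 with IL-4 (log2 fold change 2.40, edgeR adjusted p = 0.0018), a rise at a level of few reads. *Fgf1* and *Il1a* also passed the filter on low counts only through the IL-4 libraries, so they could be tested only by being higher there. The 8 genes called higher and the median of 0.73 include both. Among receptors, several of which macrophages also express, *Cd36*, a fatty acid transporter that also binds S100A8 and S100A9 with their lipid cargo, rose by 1.48 on the log2 scale. *Tlr4*, the endotoxin receptor that S100A8 activates, rose by 0.98 and *Bsg* (CD147), a receptor of S100A9, by 0.85. *Ager*, which encodes RAGE, had only 18 to 44 reads in the controls against 18 to 34 with IL-4, with a log2 fold change of 0.03 (edgeR adjusted p = 0.962). For the plasminogen system, to which S100A10 binds at the cell surface, *Plat* (0.50), *Plau* (0.62) and *Plaur* (0.45) were higher, and *Plg* itself had at most 3 reads in any library. *Plaur* lost its call where libraries were scaled by their totals (0.28, adjusted p = 0.0724).

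Partners inside the cell were more often lower than higher. Of 17, 15 were tested, 1 was higher and 7 were lower (against 18.4% of all genes tested), with a median log2 fold change of -0.14. The count of higher genes was 4 with the length trend removed and 3 without control 3 and IL-4 6, and that of lower genes was 8 in both. Those fits called 3608 of 14009 and 3576 of 14041 genes higher, and 3555 and 3520 lower. *Myh9*, the non-muscle myosin heavy chain bound by S100A4, had 60122, 60020 and 48495 reads in the controls against 30322, 29560 and 22324 with IL-4 (log2 fold change -0.88, edgeR adjusted p = 0.00209). Its long transcript was lowest where the short S100 transcripts were highest, in control 3 and in IL-4 6. *Ppfibp1* (liprin-β1), another S100A4 partner, was at -0.59 (edgeR adjusted p = 0.00111), and *Cacybp*, the calcyclin-binding protein named for S100A6, at -0.41 (edgeR adjusted p = 0.0056). *Dysf*, a membrane repair protein that binds annexins, was at -1.39 (edgeR adjusted p = 0.000246). *Ryr1*, a calcium channel regulated by S100A1, was the member of this list that rose, from 8, 6 and 0 reads to 39, 24 and 31 (edgeR adjusted p = 0.00444). It passed the filter on low counts only through the IL-4 libraries and was not called with limma on log2(FPKM + 1) (0.08, adjusted p = 0.0951). *Trp53* (-0.28), *Stip1* (-0.27) and *Myh10* (-0.53) were also lower. *Myh10* was not called without control 1 (adjusted p = 0.0952) or control 2 (adjusted p = 0.0885), and *Trp53* was not called without control 1, control 3, IL-4 4 or IL-4 5 (adjusted p = 0.0542 to 0.0836).

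The annexins bound by S100A10 and S100A11 did not pass the test. *Anxa2* had 16384, 15464 and 17505 reads in the controls against 15210, 16078 and 18972 with IL-4 (log2 fold change 0.18, standard error 0.08, edgeR adjusted p = 0.131). *Anxa1* was at 0.02 (standard error 0.08, edgeR adjusted p = 0.889), and *Anxa11*, bound by S100A6, at 0.16 (edgeR adjusted p = 0.0541). Of all 12 annexins 10 were tested, of which 1, *Anxa4* (1.13), was higher and 3, *Anxa8* (a fold of 0.251), *Anxa5* (-0.32) and *Anxa6* (-0.15), were lower. The shares over all genes tested were 19.0% and 18.4%. *Anxa6* lost its call when any library other than IL-4 6 was left out (adjusted p = 0.111 to 0.157). With the transcript length trend removed, *Anxa2* (0.10, edgeR adjusted p = 0.0273) and *Anxa11* (0.15, edgeR adjusted p = 0.00805) were called higher, at small differences. *Anxa3*, at -0.19 and not called on all 6 libraries, was called lower in that fit (-0.26, edgeR adjusted p = 0.0019). It was called lower in 6 of 14 alternatives.

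Among 30 other EF-hand genes, 25 were tested, 10 were higher and 3 lower, and their median log2 fold change was 0.24. Over all genes tested, 19.0% were higher and 18.4% lower. Genes that rose include *Rcn3* (0.82) and *Rcn1* (0.40), calcium-binding proteins of the secretory pathway, *Sri* (0.48), which encodes sorcin, and *Chp1* (0.41). *Ncs1* (-0.42), *Efhd2* (-0.50) and *Capn2* (-0.22) were lower, although *Capn2* was not called without control 1, control 2 or IL-4 5 (adjusted p = 0.0525 to 0.0567). With libraries scaled by their totals, 8 of this list were higher and 7 lower. Of all 14009 genes tested, that scaling called 1704 higher and 4963 lower.

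Markers of other cell types moved with IL-4, and S100 genes are expressed by several of the cell types concerned. For the counts below, 19.0% of all genes tested were called higher and 18.4% lower. Of 15 macrophage markers 14 were lower and none higher, with a summed level of 4300 to 5660 FPKM in the controls against 1640 to 2270 with IL-4, *Cd68* being the exception (log2 fold change 0.38, edgeR adjusted p = 0.0572). The largest part of that sum was *Lyz2*, at 2469.2 to 3224.52 FPKM in the controls against 673.21 to 937 with IL-4. *Cd68* was called higher in 6 of 14 alternatives: without control 3 (adjusted p = 0.0206), without IL-4 4 (adjusted p = 0.0444), without control 3 and IL-4 6 (adjusted p = 1.17e-06), with the length trend removed (adjusted p = 0.00474), with DESeq2 (adjusted p = 0.0237) and with no filter (adjusted p = 0.0474). None of the 15 macrophage markers was at 0, and *Ptprc*, which encodes the CD45 used to deplete leukocytes, still had 2506 to 2798 reads in the controls against 1195 to 1263 with IL-4. Of 10 AP markers 7 were higher and 2, *Lum* and *Pdgfrb*, lower, with a summed level of 6010 to 6320 FPKM in the controls against 9140 to 9860 with IL-4. Most of that sum came from 2 collagen genes. *Col1a1* had 3166.6 to 3472.7 FPKM in the controls against 3430.32 to 3859.69 with IL-4, and *Col3a1* had 2150.68 to 2200.93 against 4817.98 to 5177.66. Markers of mature adipocytes summed to 51.7 to 59.7 FPKM in the controls and 74.2 to 101 FPKM with IL-4. *Fabp4* and *Pnpla2*, 2 of the 4 tested, were higher and 1, *Lipe*, was lower, while *Plin1*, *Cidec*, *Lep*, *Cfd* and *Retn* had at most 3 reads in any library. Most of that sum came from *Fabp4*, at 32.82 to 38.62 FPKM in the controls against 54.63 to 78.32 with IL-4. Markers of endothelial cells summed to 13.5 to 14.4 FPKM in the controls against 14.9 to 16.8 with IL-4, but moved in opposite directions. Of 7 tested, *Vwf* (a fold of 8.43) and *Tek* (1.75) were higher, and *Cdh5* (0.33) and *Emcn* (0.356) were lower. No keratinocyte or dendritic cell marker tested was called (0 of 5 and 0 of 1), with summed levels of 1.93 to 2.48 against 1.66 to 2.29 FPKM and of 1.23 to 1.74 against 1.04 to 1.52 FPKM. The part of these cell types in the S100 levels was not tested.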

How the data were processed

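mRNA-seq files of 3 control and 3 IL-4 cultures were used, and groups and replicate numbers came from the sample labels. The authors cleaned the reads with SOAPnuke, aligned them to RefSeq transcripts with Bowtie2 and estimated gene levels with RSEM. The labels name HISAT and StringTie as well, and mm10 as the build. The deposited expected counts are not normalized, and the FPKM were scaled by the authors for transcript length and depth. Genes missing from a library's file were set to 0, and 1 row per file without a gene number (at most 0.000225% of counts) was left out. Of the counts above 0, 87.0% were whole, and the others were rounded. Genes were filtered with filterByExpr (minimum count 10, minimum total 15), scaled with TMM and tested with edgeR 4.0.16 under R 4.3.3, with Benjamini-Hochberg adjustment over 14009 genes. The script was tested on simulated data. Normalized counts are reads brought to the mean TMM-scaled depth of the 6 libraries.

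The 10 genes and all lists were chosen with earlier results of these data known, by family or by known partners, and all are given by counts. Genes of lists were named where they are known direct partners of a member, lie beside one or are examples of their list, and marker genes where they define their cell type. Alternatives were DESeq2 1.42.0, upper-quartile scaling, library totals, the unfiltered table, limma 3.58.1 with pseudocounts of 1 or 0.1 on the log2 FPKM scale, and each library left out in turn. The removal of each library's lowess trend on log transcript length (span 0.3) and the omission of control 3 with IL-4 6 were chosen once the data had been seen. Counts set the precision of each value, and intervals cover counting error only. Promoters came from RefSeq on GRCm38.p6, and no window was given for *S100a10*. The small RNA libraries were not used here. A result for 1 gene of the lists is not reported here.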

Additional observations from a re-analysis of the deposited data

How the results depend on the processing

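*S100a13*, *S100a16* and *S100b* were higher and past the threshold in all 14 alternatives, with log2 fold changes of 0.86 to 1.23, 1.66 to 1.92 and 0.43 to 1.16, and *S100a6* in 12 of 14 (0.42 to 0.70), missing it with limma on log2(FPKM + 1) and on log2(FPKM + 0.1), at 0.42 in both. Asking also for a log2 fold change above 1 left 2 members higher. The count of members lower, 0 in the report, was 1 with DESeq2, library totals, no filter, limma on log2(FPKM + 1) and limma on log2(FPKM + 0.1), 0 to 2 with any single library omitted (2 without IL-4 6), 3 with the length trend removed and 2 without control 3 and IL-4 6. *S100a4* passed at -0.51 with DESeq2, -0.67 with library totals, -0.50 with no filter, -0.69 with limma at either pseudocount, -0.67 with the length trend removed and -0.55 without control 3 and IL-4 6, and lay from -0.70 to -0.35 with any single library omitted. *S100a10* passed at -0.31 with the length trend removed and -0.23 without control 3 and IL-4 6, and ranged from -0.29 (without IL-4 6) to -0.08 over the omissions of single libraries. *S100a1* passed at 0.24 without control 3 and IL-4 6. *S100a11* turned to -0.15 with library totals, -0.16 with limma at either pseudocount, -0.14 with the length trend removed and -0.05 without control 3 and IL-4 6, and lay from -0.09 to 0.09 with any single library omitted (-0.02 without control 2, -0.09 without IL-4 6). Library totals, limma on log2(FPKM + 1) and limma on log2(FPKM + 0.1) move the median of all genes by -0.17, -0.13 and -0.17, and called 1704, 1697 and 1694 of all genes higher and 4963, 4916 and 4904 lower. Shares computed from expected counts in place of FPKM changed in size but not in direction, for *S100a16* from 3.47% to 10.1%. For these changes the cause was not tested, beyond the shift in the median that the scalings themselves make. With 32 to 84 reads, *S100b* is the least precise of the members called. No paired analysis was possible because the control cultures are numbered 1 to 3 and the IL-4 cultures 4 to 6, so the groups share no number, and the small RNA libraries were not tested.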
